A study of Homo sapiens with 6 samples.

Results

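The MAP kinase phosphatases and receptor feedback genes described here are 10 genes taken from a list: DUSP1, DUSP4, DUSP5, DUSP6, DUSP8, DUSP10, DUSP16, SPRY2, SPRED2 and ERRFI1. They are listed by name for their role, with earlier results of these data known, and all 10 were found among the 58735 genes of the table by matching Ensembl identifiers to GENCODE 29 symbols. The cells were C4-2B MDVR, an enzalutamide-resistant human prostate cancer line derived from C4-2B, and every library comes from this 1 line after 2 days of treatment. The control group received DMSO, the vehicle. The other groups received 20 uM enzalutamide (an androgen receptor antagonist), 10 uM PTUPB, 20 uM PTUPB, 10 uM PTUPB plus enzalutamide, or 20 uM PTUPB plus enzalutamide. PTUPB inhibits both soluble epoxide hydrolase and cyclooxygenase-2. The labels give no enzalutamide dose for the combinations, and the dose given alone was assumed there. Each of the 6 groups is 1 library, so no difference between a pair of libraries can be checked against replicates.

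MAP kinases (ERK, JNK and p38) are switched on by phosphorylation of a threonine and a tyrosine in their activation loop, and the MAP kinase phosphatases remove both phosphates. Many of the phosphatase genes are themselves transcribed in response to MAP kinase activity or stress, which makes them a negative feedback on the cascade. Sprouty and SPRED proteins restrain signalling between receptor tyrosine kinases and RAF, and ERRFI1 binds the kinase domain of EGFR and inhibits it.

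Levels are in FPKM, a fragment count scaled by exon length and library depth, so genes can be compared per length. The table held 20156523 to 29450436 fragments per library, and mitochondrially encoded transcripts took 5.83% to 7.12% of them in the control and both 20 uM PTUPB libraries and 12.2% to 13.8% in the other 3. All 9 luminal prostate markers were at FPKM of 1 or more in the control library, where they summed to 1037. Their sum was 771 to 945 with enzalutamide or 10 uM PTUPB and 237 to 261 at 20 uM PTUPB. Markers of basal epithelium, blood and endothelium each summed to less than 1 FPKM in every library, and of the 5 stromal markers COL1A1 alone reached 1. The stromal sum was 2.39 to 3.86 FPKM in the 4 libraries without 20 uM PTUPB and 4.64 and 6.52 in those with it, and COL1A1 was 2.38 of the 3.56 FPKM in the control and nearly all of the sum elsewhere. The part of these marker shifts in the members' differences was not tested. Some genes were high in 1 library alone, with at least 20 fragments and at least 5-fold above every other library. There were 97 such genes at 20 uM PTUPB, 71 in the control, 48 at 20 uM PTUPB plus enzalutamide, and 4 to 12 in the 3 libraries with enzalutamide or 10 uM PTUPB. Of those in the control, COL1A2 had 204 fragments in the control and at most 4 elsewhere, TP63 had 51 and at most 3, and EREG had 87 and at most 4. Results that rest on the control library are therefore given below with and without it.

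The members spanned a wide range of levels. Over the 6 libraries ERRFI1 was the most abundant, at a mean of 15.2 FPKM, followed by DUSP16 at 10.7 and DUSP1 at 6.90. DUSP8 (3.79), DUSP5 (3.46), DUSP10 (3.01) and SPRED2 (2.70) came next in mean FPKM. DUSP4 (0.982), SPRY2 (0.330) and DUSP6 (0.0933) had mean FPKM under 1, the level required for testing, so 7 of the 10 members were tested. The order depended on treatment. In the control library DUSP5 was next to last at 0.742 FPKM, and in the library with 20 uM PTUPB plus enzalutamide it was the fourth most abundant at 12.2 FPKM. Neighbours whose counting intervals overlapped in the control library were DUSP10, DUSP4 and DUSP8 (2.33, 2.25 and 2.15 FPKM), and SPRY2 and DUSP5 (0.969 and 0.742 FPKM). At 20 uM PTUPB plus enzalutamide the intervals of DUSP1 (14.7 FPKM) and DUSP16 (14.4 FPKM) overlapped.

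**Figure D1:**
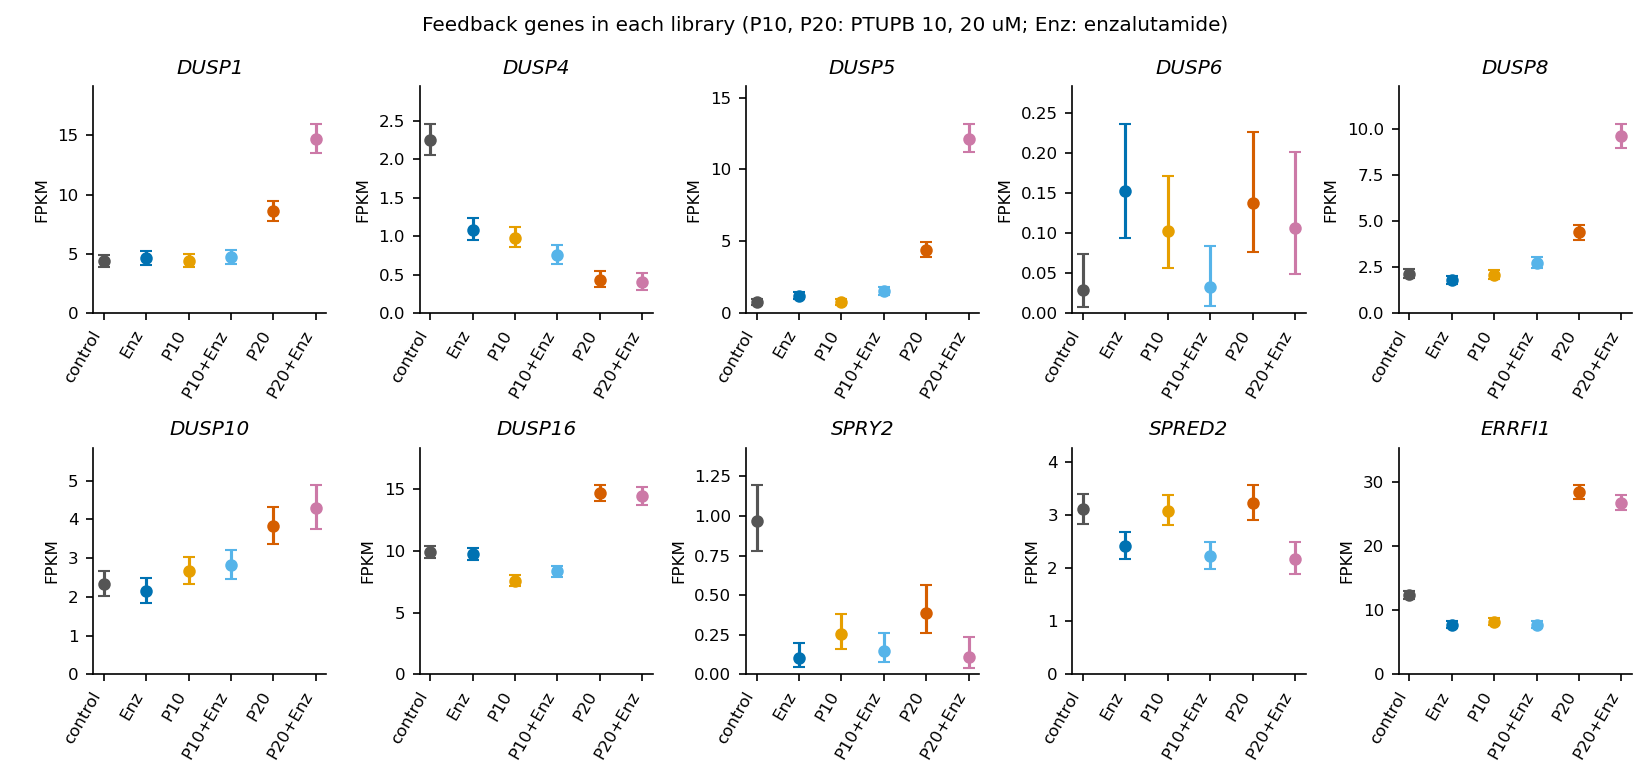
FPKM of each of the 10 genes (y axis, from 0) in each of the 6 libraries (x axis), 1 point per library, with bars for the 95% counting interval from the fragments behind the point. DUSP1, DUSP5, DUSP8 and ERRFI1 are highest in the pair of libraries with 20 uM PTUPB, DUSP4 and SPRY2 are highest in control, and SPRED2 is lower in each library with enzalutamide than in its partner without.

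Effects below are differences of log2(FPKM + 1) from an additive limma model over all 6 libraries, with PTUPB as 3 levels plus enzalutamide. With 1 library per group, its p-values measure departures from additivity and not the spread between replicates. P-values were adjusted over the 12960 genes tested, and a gene was called at an adjusted p under 0.05. Ratios between 2 libraries are ratios of FPKM with 95% intervals that cover counting error only. The RNA is from whole cultures, in which fewer cells of a kind and less RNA per cell cannot be told apart.

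At 20 uM PTUPB 5 of the 7 tested members rose and none fell: DUSP5, ERRFI1, DUSP8, DUSP1 and DUSP10. The background was large, with 15.9% of all tested genes called higher and 18.2% called lower, 34.2% in all. The median effect was 1.16 over the 7 tested members and 0.0045 over all tested genes. DUSP16 and SPRED2 did not pass, and the 3 members under the level filter were not tested. The lists were assembled with earlier results of these data known, so these counts describe the members and give no independent evidence of direction.

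DUSP5 encodes a nuclear phosphatase selective for ERK (chromosome 10, 110497838 to 110511544, plus strand, GRCh38). Without enzalutamide DUSP5 was at 0.742 FPKM in control, 0.763 at 10 uM PTUPB and 4.40 at 20 uM. With enzalutamide the values at the same doses were 1.18, 1.51 and 12.2 FPKM. Both libraries at 20 uM were above all the others, and the combination was highest. The PTUPB 20 uM effect was 2.11 (SE 0.28) with an adjusted p of 0.00638 in limma, the largest among the members. The ratio of 20 uM to 0 uM was 5.93 (4.45 to 8.02) without enzalutamide and 10.3 (8.22 to 13.1) with it. Processed pseudogenes named after DUSP5 could share its fragments, and the higher of them, DUSP5P1, reached 0.260 FPKM.

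DUSP1 encodes an inducible nuclear phosphatase that acts on p38 and JNK as well as ERK (chromosome 5, 172768090 to 172771195, minus strand, GRCh38). It was at 4.36, 4.42 and 8.57 FPKM at 0, 10 and 20 uM PTUPB without enzalutamide. With enzalutamide it was at 4.63, 4.70 and 14.7 FPKM. The 4 libraries without 20 uM PTUPB lay close together, and both libraries with it were higher. DUSP1 rose by 1.16 at 20 uM PTUPB (SE 0.22; adjusted p = 0.0145, limma). In pairs of libraries the 20 uM level was 1.97 times (1.68 to 2.31) the 0 uM level without enzalutamide and 3.17 times (2.73 to 3.69) with it.

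DUSP8, DUSP10 and DUSP16 encode phosphatases directed mainly at JNK and p38. DUSP8 (chromosome 11, 1554044 to 1571920, minus strand, GRCh38) was at 2.15, 2.09 and 4.38 FPKM at 0, 10 and 20 uM PTUPB without enzalutamide. With enzalutamide it was at 1.77, 2.73 and 9.61 FPKM. The order of the paired libraries changed with dose: enzalutamide was lower than its partner at 0 uM and higher at 10 and 20 uM. DUSP8 rose by 1.36 at 20 uM PTUPB (SE 0.30; adjusted p = 0.0212, limma). The ratio of 20 uM to 0 uM was 2.04 (1.76 to 2.37) without enzalutamide and 5.43 (4.68 to 6.31) with it. The pseudogene DUSP8P5 reached 3.06 FPKM and the antisense gene KRTAP5-AS1 0.323 FPKM, so part of the DUSP8 level is uncertain.

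DUSP10 (chromosome 1, 221701424 to 221742176, minus strand, GRCh38) was at 2.33, 2.66 and 3.82 FPKM at 0, 10 and 20 uM PTUPB. With enzalutamide it was at 2.15, 2.82 and 4.28 FPKM, so the FPKM values followed the dose order in both series. Between 0 and 10 uM without enzalutamide the ratio was 1.14 (0.940 to 1.385), an interval that includes 1. That difference turned negative after rescaling to TPM (-0.108). The PTUPB 20 uM effect was 0.64 (SE 0.18), with an adjusted p of 0.0409 in limma. This call was lost with no filter on low values, with a filter at a mean FPKM of 0.3, after scaling to TPM or by total fragments, and with limma-voom (adjusted p = 0.0545 to 0.134, limma). It was also lost without 5 of the 6 libraries in turn (adjusted p = 0.0801 to 0.313, limma) and was kept without 20 uM PTUPB. The effect itself was 0.55 to 0.85 over all these fits.

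DUSP16 (chromosome 12, 12474210 to 12562383, minus strand, GRCh38) was the most abundant of the phosphatases. It was at 9.88, 7.57 and 14.6 FPKM at 0, 10 and 20 uM PTUPB without enzalutamide, and at 9.69, 8.32 and 14.4 FPKM with it. The libraries at 10 uM were the lowest and those at 20 uM the highest. The PTUPB 20 uM effect of 0.52 (SE 0.16) was not called, at an adjusted p of 0.0543 (limma), while limma-voom on recovered fragments called it (adjusted p = 0.0409). The overlapping opposite-strand gene AC007619.1 reached 1.93 FPKM, and whether the counting used strand is not stated.

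DUSP4 encodes a nuclear phosphatase of ERK and JNK (chromosome 8, 29333064 to 29350668, minus strand, GRCh38), and its levels ran the other way. It was at 2.25, 0.979 and 0.432 FPKM at 0, 10 and 20 uM PTUPB without enzalutamide, from 488, 210 and 74 fragments. With enzalutamide it was at 1.08, 0.751 and 0.398 FPKM, from 222, 144 and 53 fragments. The control library was highest, and the level was lower at each higher dose in both series. DUSP4 was 5.21-fold (4.07 to 6.75) lower at 20 uM than at 0 uM without enzalutamide and 2.72-fold (2.01 to 3.74) lower with it. Between 10 and 20 uM, where the control library plays no part, it was 2.27-fold (1.73 to 2.998) lower without enzalutamide and 1.89-fold (1.37 to 2.64) lower with it. Its mean was just under the filter. In the fit that included genes down to a mean FPKM of 0.3, its PTUPB 20 uM effect was -0.88 with an adjusted p of 0.0590 (limma).

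DUSP6, the cytoplasmic ERK phosphatase often read as a gauge of ERK output (chromosome 12, 89347232 to 89353271, minus strand, GRCh38), was near the limit of detection. It had 4 to 20 fragments per library, which corresponds to 0.0289 to 0.153 FPKM. At 20 uM PTUPB its ratio to 0 uM was 4.74 (1.51 to 19.6) without enzalutamide, from 15 against 4 fragments, and 0.693 (0.278 to 1.59) with it, from 9 against 20. The difference between these ratios was not tested.

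ERRFI1 (chromosome 1, 8004404 to 8026308, minus strand, GRCh38) was at 12.3, 8.25 and 28.4 FPKM at 0, 10 and 20 uM PTUPB without enzalutamide. With enzalutamide it was at 7.76, 7.76 and 26.7 FPKM. The 3 libraries with enzalutamide or 10 uM PTUPB were below the control, and both libraries at 20 uM were well above it. ERRFI1 rose by 1.40 at 20 uM PTUPB (SE 0.20; adjusted p = 0.00751, limma). Against its own partner, 20 uM PTUPB was 2.30 times (2.16 to 2.45) higher without enzalutamide and 3.45 times (3.19 to 3.73) higher with it. Between 10 and 20 uM, without use of the control library, the ratios were 3.44 (3.20 to 3.70) and 3.45 (3.18 to 3.74).

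SPRED2, which brings neurofibromin to the membrane to restrain RAS (chromosome 2, 65310851 to 65432637, minus strand, GRCh38), was nearly flat across PTUPB dose. It was at 3.10, 3.07 and 3.22 FPKM at 0, 10 and 20 uM without enzalutamide and at 2.41, 2.22 and 2.17 FPKM with it. All 3 libraries with enzalutamide were below all 3 without. The PTUPB 20 uM effect was -0.03 (SE 0.18; adjusted p = 0.903, limma), and it changed sign when some single libraries were left out. The ratio of 20 uM to 0 uM was 1.04 (0.906 to 1.19) without enzalutamide.

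SPRY2, a Sprouty inhibitor of receptor signalling to ERK (chromosome 13, 80335976 to 80340951, minus strand, GRCh38), was low throughout. It was at 0.969 FPKM (88 fragments) in control, 0.256 (23 fragments) at 10 uM PTUPB and 0.390 (28 fragments) at 20 uM. With enzalutamide it was at 0.105, 0.149 and 0.108 FPKM, from 9, 12 and 6 fragments. The control was highest, and each library with enzalutamide was below its partner. SPRY2 was 2.48-fold (1.61 to 3.95) lower at 20 uM than in the control, while between 10 and 20 uM the ratio was 1.52 (0.846 to 2.77). SPRY4, its relative, had 125 fragments in the control library and 1 to 20 elsewhere, and PHLDA1, an ERK output transcript, had 783 against 33 to 179. These genes were high in the library that also held more COL1A2, TP63 and EREG, and the part of that library in the differences of SPRY2 and DUSP4 from control was not tested.

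**Figure D2:**
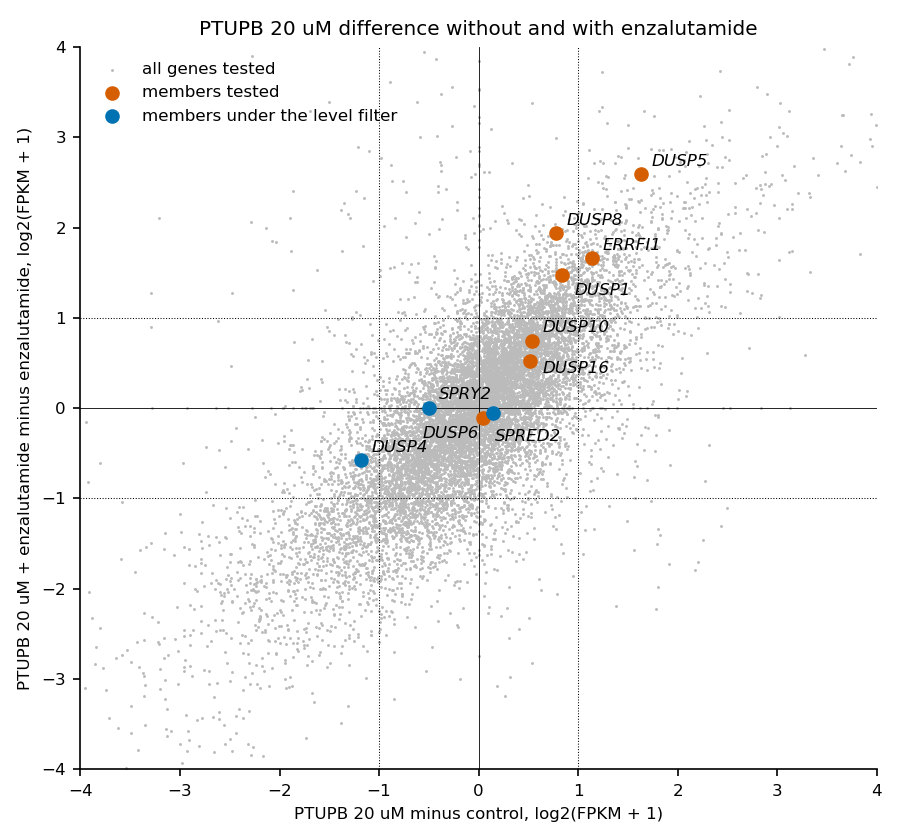
Difference between 20 and 0 uM PTUPB in log2(FPKM + 1), without enzalutamide (x axis) and with enzalutamide (y axis), 1 point per gene, with the 12960 tested genes in grey, the 7 tested members in orange and the 3 members under the level filter in blue. Dotted lines mark a difference of 1, points beyond 4 on either axis are not drawn, and DUSP5, DUSP8, DUSP1 and ERRFI1 lie above 1 on the y axis.

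Counted in pairs of libraries at a log2(FPKM + 1) difference of 1 or more, 2 of the 10 members (DUSP5 and ERRFI1) were higher at 20 uM PTUPB than in control and 1 (DUSP4) was lower. Over all tested genes 9.47% were higher and 12.7% lower in that pair. These shares leave out genes under the level filter, while the 10 members include DUSP4, SPRY2 and DUSP6, which were under it. A gene under 1 FPKM cannot fall by log2 1 on this scale, so SPRY2 and DUSP6 could not count as lower in any pair. With enzalutamide in both libraries 4 members were higher (DUSP5, DUSP8, ERRFI1 and DUSP1) and none lower, against 13.5% and 15.8% of all tested genes. With a pseudocount of 0.1 the DUSP4 difference in this pair was -1.25, which is past log2 1. For DUSP5 the differences were 1.63 and 2.59 without and with enzalutamide, and for DUSP8 they were 0.78 and 1.94.

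The doses of 10 and 20 uM were also compared directly. In the additive model 5 of the 7 tested members rose between 10 and 20 uM and none fell, against 16.5% of all tested genes higher and 16.9% lower. ERRFI1 rose by 1.67 (SE 0.20; adjusted p = 0.00614, limma) and DUSP5 by 2.00 (SE 0.28; adjusted p = 0.00846, limma). DUSP8 rose by 1.15 (adjusted p = 0.0335), DUSP1 by 1.14 (0.0159) and DUSP16 by 0.79 (0.0182), all in limma. DUSP10 (0.43; adjusted p = 0.112) and SPRED2 (0.01; adjusted p = 0.958) did not pass. In pairs of libraries, 2 members (DUSP5 and ERRFI1) were higher by log2 1 or more at 20 than at 10 uM without enzalutamide, against 9.27% of all tested genes. With enzalutamide there were 4 (DUSP5, DUSP8, ERRFI1 and DUSP1), against 13.7%, and no member was lower by that much in either pair. With a pseudocount of 0.1 DUSP4 was lower by more than log2 1 without enzalutamide (-1.02). Without the 10 uM PTUPB library, or without the 10 uM combination, only ERRFI1 and DUSP5 stayed called among the members. Far fewer of all tested genes were called in those fits too, so the 16.5% and 16.9% above are not their background.

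At 10 uM PTUPB none of the 7 tested members was called by limma, nor was any of the 12960 genes (percent called 0). At an unadjusted p under 0.05 there were 0 members and 480 genes, and limma-voom called 0 genes. The member effects ran from -0.27 for DUSP16 to 0.21 for DUSP10. In pairs of libraries, no member differed by log2 1 or more at 10 uM, against 1.62% of all tested genes higher and 0.772% lower without enzalutamide, and 2.24% and 1.57% with it. DUSP4 was 2.30-fold (1.95 to 2.71) lower than control at 10 uM PTUPB on the ratio scale. With enzalutamide in both libraries, without use of the control, it was 1.44-fold (1.16 to 1.79) lower. DUSP8 was 1.54 times (1.30 to 1.83) higher at 10 uM with enzalutamide in both libraries, and 0.974 times (0.825 to 1.15) without it.

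For enzalutamide over the 3 PTUPB levels limma called 0 members and 0 of all tested genes (percent called 0). At an unadjusted p under 0.05 there were 1 member, DUSP5, and 626 genes, and limma-voom called 1 gene. The DUSP5 effect was 0.70 (SE 0.23) and that of SPRED2 was -0.34 (SE 0.15), both with an adjusted p of 0.919 (limma). Rescaling to TPM moved the median enzalutamide effect of all genes from 0.01 to -0.23. In pairs of libraries 0 members passed log2 1 at 0 uM PTUPB, against 1.31% of all tested genes higher and 1.37% lower, and 0 at 10 uM, against 1.41% and 2.01%. SPRY2, at 0.969 FPKM in control and 0.105 with enzalutamide, could not count as lower, since a gene under 1 FPKM cannot fall by log2 1 here. At 20 uM PTUPB 1 member, DUSP5, was higher with enzalutamide, against 3.83% of all tested genes higher and 2.9% lower.

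The pairs show which members differed with enzalutamide at each dose. SPRED2 was 0.777 (0.675 to 0.894), 0.722 (0.623 to 0.836) and 0.673 (0.566 to 0.799) times its partner at 0, 10 and 20 uM PTUPB, lower in all 3 pairs and also after rescaling to TPM. DUSP5 was 1.59, 1.97 and 2.76 times its partner, higher in all 3 pairs on both scales. DUSP1 was at 1.06 at 0 and at 10 uM and at 1.71 (1.504 to 1.95) at 20 uM, and its difference at 0 uM was negative after rescaling to TPM. ERRFI1 was 0.629 times its partner at 0 uM, which is the control, and 0.940 and 0.941 at 10 and 20 uM. DUSP4 was 0.481 times its partner at 0 uM, 0.767 (0.616 to 0.953) at 10 uM and 0.922 (0.636 to 1.33) at 20 uM. DUSP10 (0.923 to 1.12) and DUSP16 (0.980 to 1.10) stayed near 1 in all 3 pairs, and the sign of the DUSP10 difference at 20 uM turned negative after rescaling to TPM. SPRY2 was 0.108 times its partner at 0 uM, 0.584 (0.265 to 1.22) at 10 uM and 0.276 (0.0934 to 0.679) at 20 uM.

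**Figure D3:**
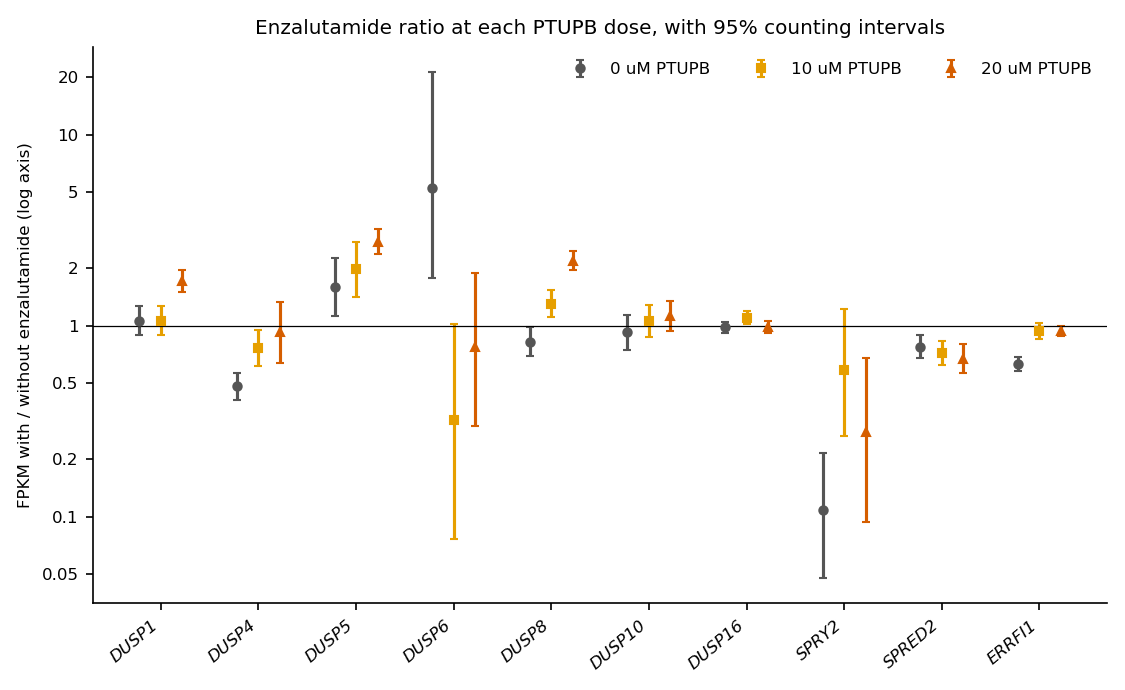
Ratio of FPKM with to without enzalutamide (y axis, log scale) for each of the 10 genes (x axis) at 0, 10 and 20 uM PTUPB, with bars for 95% counting intervals. DUSP8 goes from 0.826 at 0 uM to 2.19 at 20 uM, SPRED2 lies below 1 at every dose, and the DUSP6 and SPRY2 intervals are wide.

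The enzalutamide ratio of DUSP8 lay below 1 without PTUPB and above 1 with it, at 0.826 (0.692 to 0.984), 1.31 (1.11 to 1.54) and 2.19 (1.96 to 2.46) at 0, 10 and 20 uM PTUPB. In the model with an enzalutamide by PTUPB dose term, its interaction effect over 20 uM was 1.16 (SE 0.35), with an unadjusted p of 0.0182 and an adjusted p of 0.475 (limma). The interaction effects of DUSP5 (0.96, adjusted p = 0.545) and DUSP1 (0.64, adjusted p = 0.587) did not pass either. Limma called 0 members and 0 of all tested genes (percent called 0), with 1 member (DUSP8) and 1219 genes at an unadjusted p under 0.05, and limma-voom called 13 genes. That model has 1 residual degree of freedom. A larger difference with than without enzalutamide is therefore a measured pattern in these libraries and did not pass the test.

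The calls depended on single libraries, each of which is a whole group. Calls over all tested genes fell too in the 3 fits below, most without the enzalutamide library and least without the combination at 20 uM. The shares called in the full fit are therefore no background for the member counts without the enzalutamide library or without the control library. Without the combination at 20 uM, calls over all tested genes fell only slightly. Whether the lost calls are particular to the members was not tested. Without the control library the PTUPB 20 uM calls were 3 (ERRFI1, DUSP5 and DUSP8), and without the combination at 20 uM they were 3 (ERRFI1, DUSP1 and DUSP5). Without the enzalutamide library no member was called. In that fit the DUSP5 effect was 1.83 and the ERRFI1 effect 1.14. Each fit with 1 library left out, not only this one, has 1 residual degree of freedom fewer than the full fit.

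Other genes of the pathway were followed in lists written by pathway role, whose counts use the same PTUPB 20 uM test and the same background of 15.9% higher and 18.2% lower. Of the 9 other phosphatases that act on MAP kinases, 7 were tested, 3 rose and 2 fell, with a median effect of -0.55. PPM1D, a phosphatase of p38 and a target of p53, rose by 1.83 (SE 0.31; adjusted p = 0.0113, limma), and PPM1A and PPM1B rose by 0.78 each. DUSP9, a cytoplasmic ERK phosphatase, fell by 1.08, and PTPRR, a receptor-type tyrosine phosphatase of ERK, fell by 1.04. Of the 11 atypical dual-specificity phosphatases 10 were tested, 4 rose and none fell, among them STYXL1 (1.38), DUSP12 (1.04) and DUSP28 (0.88). The other 5 Sprouty and SPRED genes were low, and the 1 tested did not pass.

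Among the 18 other brakes on receptors and RAS, all tested, 1 rose and 3 fell, with a median effect of -0.02. CBLB, a ubiquitin ligase for receptors, rose by 1.69 (SE 0.21; adjusted p = 0.00555, limma). LRIG1, a transmembrane inhibitor of ERBB receptors, fell by 1.93, PEBP1 (the RAF kinase inhibitor protein) by 0.93 and LRIG3 by 0.81. Of the 12 receptor tyrosine kinases 9 were tested, none rose and 6 fell, with a median effect of -0.92. ERBB2 fell by 2.47 (SE 0.28; adjusted p = 0.00463, limma), ERBB3 by 1.57 and FGFR4 by 1.51. EGFR, the receptor that ERRFI1 inhibits, fell by 1.30 (SE 0.33; adjusted p = 0.0324, limma). It was at 15.5, 16.0 and 9.75 FPKM at 0, 10 and 20 uM PTUPB, and at 18.5, 13.6 and 3.92 FPKM with enzalutamide. The 11 EGF family ligands had 3 tested members, and none was called.

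In the RAS-ERK cascade 17 of 18 genes were tested, 2 rose (MAP2K2 by 0.71 and BRAF by 0.68) and none fell. In the JNK and p38 cascades 27 of 28 were tested, 4 rose and 3 fell. The kinases MAP3K10 (1.14), MAP3K20 (0.91) and MAP3K2 (0.67) were among those that rose, and MAPK12, a p38 isoform, fell by 1.28. MAP2K3, a p38 activator, fell by 1.08 and MAPKAPK3, a p38 substrate kinase, by 0.98. Of 11 transcripts used as gauges of ERK output 3 were tested, and they did not move together. The level filter left out genes that are low on average over the libraries, so the tested genes do not stand for the list. PHLDA1, ETV1, EPHA4, FOSL1, IER3, EGR1 and SPRY4, all untested, were below control in every other library. PHLDA1 was at 3.25 FPKM in control, 0.667 with enzalutamide alone, 0.751 at 10 uM PTUPB and 0.272 at 10 uM PTUPB plus enzalutamide. At 20 uM PTUPB without and with enzalutamide it was at 0.205 and 0.223. ETV4, also untested, was at 0.529 FPKM in control and at 1.41 and 1.21 there. ETV5 rose by 2.82 (SE 0.26; adjusted p = 0.00307, limma) and LIF by 1.38, while CCND1, which encodes cyclin D1, fell by 3.23. ETV5 was at 0.245 to 0.665 FPKM in the libraries without 20 uM PTUPB and at 9.51 and 8.04 in those with it. It passed the level filter only through the libraries where it is high, so its call is no independent evidence of a rise. In the AP-1 and EGR immediate early list 6 of 11 were tested and 4 rose, among them ATF3 (5.48), JUNB (1.98) and JUN (1.62). For enzalutamide and for 10 uM PTUPB no gene of any list was called.

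**Figure D4:**
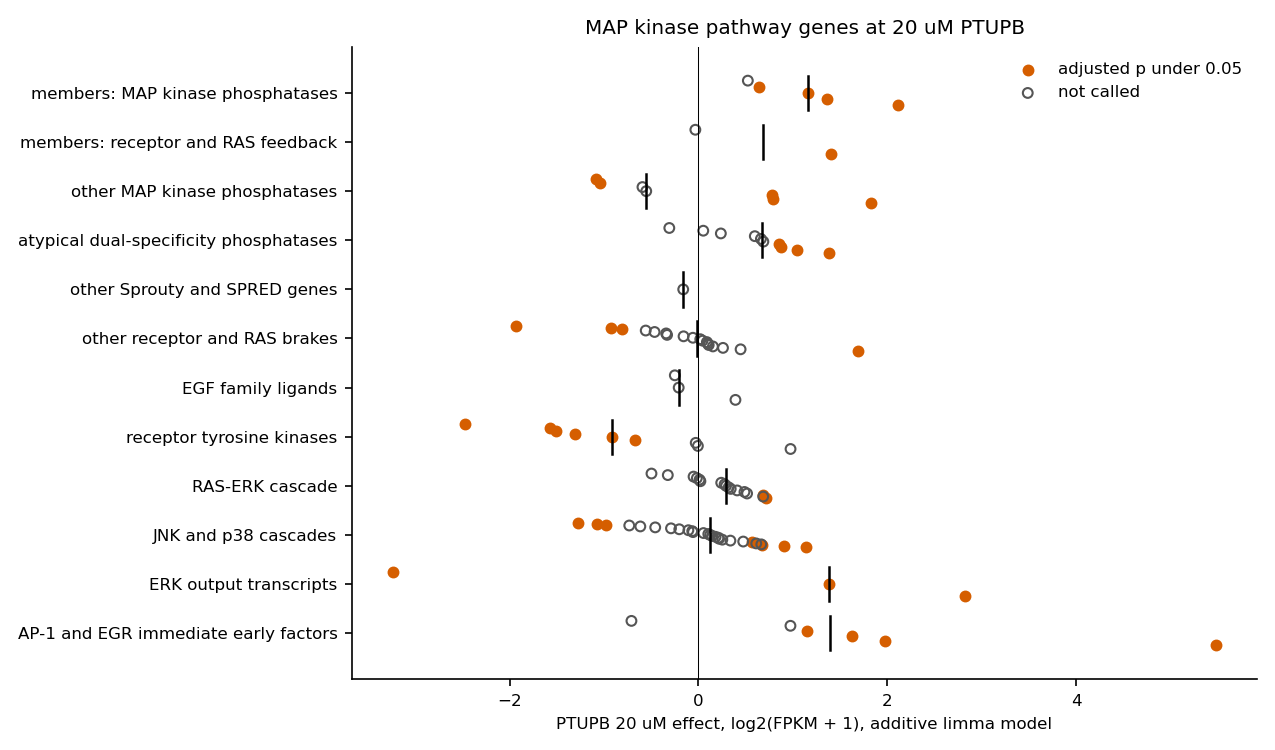
PTUPB 20 uM effect in log2(FPKM + 1) from the additive limma model (x axis) for each tested gene of the members and of 10 pathway lists (y axis), with filled points for an adjusted p under 0.05, open points for the rest and a bar at each list's median. The tested member phosphatases lie to the right of 0, the receptor tyrosine kinases have a median of -0.92, and the RAS-ERK cascade has a median of 0.29.

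The genes whose profile over the 6 libraries lay nearest to DUSP5, by Euclidean distance between centred log2(FPKM + 1) values, were ZFAND2A (0.33), ENSG00000272158 (0.36), HERPUD1 (0.40), KRT10 (0.44) and JUNB (0.44). ZFAND2A, a proteasome-associated stress gene, was at 4.83, 5.01 and 18.6 FPKM at 0, 10 and 20 uM PTUPB, and at 6.86, 6.85 and 35.2 FPKM with enzalutamide. HERPUD1, a component of endoplasmic reticulum degradation, was at 27.8, 39.7 and 100.1 FPKM, and at 38.7, 49.1 and 286.7 FPKM with enzalutamide. Nearest to SPRED2, the tested member with the most negative PTUPB 20 uM effect, were ENSG00000266602 (0.13), ERI2 (0.14), DENND5A (0.15), CEP76 (0.15) and CCNYL1 (0.16). DENND5A was at 6.39, 5.45 and 6.18 FPKM without enzalutamide and at 4.52, 4.28 and 4.25 with it, lower in each library with enzalutamide.

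Promoter windows of 250 bases before the RefSeq start (GRCh38.p14) were found for 8 of the 10 members, 12 windows in all. DUSP4 and DUSP5, the latter with the largest rise at 20 uM PTUPB, had no window and were not searched. DUSP1 and DUSP8, which both rose at 20 uM PTUPB, carried the palindromic cAMP response element, a sequence that CREB and ATF family factors can bind. They are shown with ERRFI1, which rose by a similar amount and has no match to it. The element, TGACGTCA, is in capitals, and each sequence ends at the base before the start. The windows are chr5:172771196-172771445 for DUSP1, chr11:1572272-1572521 for DUSP8 and chr1:8026310-8026559 for ERRFI1, all on the minus strand.
DUSP1: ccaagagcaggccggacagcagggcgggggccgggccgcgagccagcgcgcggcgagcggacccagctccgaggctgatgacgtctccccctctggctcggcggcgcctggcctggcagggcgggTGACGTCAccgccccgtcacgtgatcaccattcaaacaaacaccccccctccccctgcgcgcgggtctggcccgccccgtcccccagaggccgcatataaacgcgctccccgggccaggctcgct
DUSP8: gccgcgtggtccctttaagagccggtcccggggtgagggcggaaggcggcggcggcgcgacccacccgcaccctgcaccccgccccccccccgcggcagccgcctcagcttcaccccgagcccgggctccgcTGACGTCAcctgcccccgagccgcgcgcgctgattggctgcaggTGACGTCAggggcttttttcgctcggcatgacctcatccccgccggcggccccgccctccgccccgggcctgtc
ERRFI1: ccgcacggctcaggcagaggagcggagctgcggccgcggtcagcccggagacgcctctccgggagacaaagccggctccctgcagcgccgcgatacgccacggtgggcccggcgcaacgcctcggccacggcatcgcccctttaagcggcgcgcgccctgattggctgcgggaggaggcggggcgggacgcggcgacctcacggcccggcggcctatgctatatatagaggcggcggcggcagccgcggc

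The DUSP1 match starts 125 bases before the start of transcription, and the DUSP8 matches start 118 and 74 bases before it. Over all 35116 windows of this length, 1.65% held at least 1 match and 0.0541% held at least 2. The shorter core TGACG, which each full element holds on both strands, was present in 21.2% of all windows. DUSP1 held 4 cores, 2 of them inside the full element and the others 172 and 111 bases before the start. DUSP8 held 4, all inside its full elements, and 1 SPRY2 window held 1. The AP-1 motif TGANTCA (6.57% of windows) and the ETS motif CCGGAAGT (3.42%) were in no member window. The C/EBP-ATF composite element TGATGNAA (3.14%) was in 1 SPRED2 window, 173 bases before the start. DUSP10, DUSP16, DUSP6 and ERRFI1 had no match to any of these motifs. A match describes letters in this window and does not show that a factor binds there.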

How the data were processed

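RNA was sequenced from 6 libraries, 1 per group. The authors deposited 1 table of FPKM, made with HISAT and Cufflinks per the submitters' processing notes; versions, genome build, annotation and strand setting are not given in the sources used here. All 58735 identifiers matched GENCODE 29 (GRCh38), and 58207 were in the table of current gene names. Each FPKM times the exon length of its gene was a whole multiple of 1 step per library (within 0.05 fragments, 100% of values in all 6 libraries), which gave the fragments. The scale of the deposited FPKM follows size factors more than library totals.

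Values were analysed as log2(FPKM + 1), so differences of low genes are understated. Testing covered the 12960 genes whose mean FPKM reached 1, with limma 3.58.1 (R 4.3.3, intensity trend, two-sided, Benjamini-Hochberg) in an additive model with 2 residual degrees of freedom, and a second model with an enzalutamide by PTUPB dose term. Intervals of ratios are exact conditional 95% intervals on fragments (Python 3.11.15, scipy 1.17.1) and cover counting error only, since PCR copies were not separated. Nothing says that libraries came from separate cultures. Genes outside the members were named by rule: at most 3 called genes per list and direction with the largest effect, and the 5 nearest profiles. EGFR, SPRY4, PHLDA1, COL1A2, TP63 and EREG were added after their values were seen. The untested ERK output transcripts ETV1, ETV4, EPHA4, FOSL1, IER3 and EGR1 were also named outside this rule. Alternatives were a pseudocount of 0.1, other level filters, TPM, median of ratios, limma-voom on fragments, each library left out, and scaling by total fragments, the last chosen after seeing the data. The additive model was also run on simulated fragments with known additive changes. That run cannot check calls in data that depart from additivity. The members and lists were chosen with earlier results of these data known. Some genes are in more than 1 list.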

Additional observations from a re-analysis of the deposited data

Results flagged for a closer look

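DUSP8 differed in direction between PTUPB doses: the ratio of FPKM with to without enzalutamide was 0.826 at 0 uM, 1.31 at 10 uM and 2.19 at 20 uM, and no counting interval included 1. The difference between doses was tested by the interaction term, and its adjusted p was 0.475 (limma).

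DUSP6 moved in opposite directions at 10 uM PTUPB, with a ratio to 0 uM of 3.54 without enzalutamide and 0.214 with it. These ratios rest on 4 to 20 fragments per library, and the difference between them was not tested.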

How the results depend on the processing

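No paired analysis was possible because the labels give no replicate numbers and each group is 1 library. Members called at 20 uM PTUPB were 5, and 1 (ERRFI1) with no filter on low values; leaving out 1 library gave 0 (without enzalutamide) to 5. Between 10 and 20 uM members called were 5, 1 with no filter, and 2 to 5 with 1 library left out. Over all genes, 4426 were called at 20 uM, 1201 with no filter and 324 to 5403 with 1 library left out; between the doses 4325, 868 and 838 to 5591. For enzalutamide, TPM called 9 genes and limma-voom 1, against 0. For the interaction, TPM called 301, total fragments 9 and limma-voom 13, against 0, and no library could be left out for lack of residual degrees of freedom. SPRED2 changed sign at 20 uM PTUPB, to 0.022 both without enzalutamide and without the 20 uM combination (-0.088 to 0.022 with 1 library left out), and between the doses, to -0.030 by total fragments and -0.041 without 20 uM PTUPB (-0.041 to 0.070). Members past log2 1 were 3 after TPM and 1 with pseudocount 0.1 for enzalutamide at 0 uM (0 as reported), 3 with pseudocount 0.1 at 20 uM (1), 2 and 2 for 10 uM PTUPB without enzalutamide (0), and 5 and 4 for 20 against 10 uM without enzalutamide (2). The cause of these changes was not tested. TPM moved the median of all genes at 20 against 10 uM from 0.017 to 0.166, where 2764 genes were higher and 1905 lower against 2132 and 2193. Of 23 member effects, 23 kept direction and call with pseudocount 0.1 and with median of ratios, 22 with TPM, 21 each with the 0.3 filter, total fragments and limma-voom, and 15 with no filter. Members with under 100 fragments per library (SPRY2, DUSP6) are limited by depth.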
